A study of Mus musculus with 1 sample.

Results

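Nefm and Nefl encode the medium and the light chain of the neurofilament, and they were followed here through the germ cells and somatic cells of the postnatal mouse testis. The members were taken by gene symbol and are 2 of the 27998 genes listed. They were chosen on measured values, since Nefm had the largest ratio of all tested genes between the cluster of stem cell-like spermatogonia and the other germ cells, so the levels across germ cell classes are a description and carry no test. Both symbols occur once in the gene list, as ENSMUSG00000022054 for Nefm and ENSMUSG00000022055 for Nefl.

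Neurofilaments are intermediate filaments best known from neurons, where they fill the axon and set its diameter. The light chain, NEFL, can form filaments by itself, while the medium chain, NEFM, and the heavy chain, NEFH, build into filaments together with it, and alpha-internexin, encoded by Ina, is a further partner. Spermatogonial stem cells (SSCs) maintain the male germline, and glial cell line-derived neurotrophic factor (GDNF), which acts through the receptors GFRA1 and RET, sustains their self-renewal and raises the expression of transcription factor genes such as Etv5, Bcl6b and Lhx1. ID4, a transcriptional repressor, is expressed at its highest level in SSCs.

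The study examined the transcription factor ZSCAN2 in spermatogonia, and the library analysed here is its wild-type control. Testis cells of 3 C57BL/6 mice at postnatal day 8 were enriched for THY1+ spermatogonia on magnetic beads, and the enriched cells were pooled in equal numbers per mouse. Unselected testis cells were added to the pool, in an amount that the methods of the study do not give, and 1 library was made. The Zscan2 knockout library was not analysed here, and no comparison between genotypes was made. Because the mice were pooled, the cells cannot be assigned to animals, no value below has an error between animals, and the shares of cell types follow from the enrichment.

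The matrix held unique molecular identifiers (UMIs), each standing for 1 captured RNA molecule, for 970 cell barcodes. After filtering, 920 cells remained with 2655 to 44915 UMIs each (median 9223), of which 324 were germ cells and 596 were somatic cells. The germ cells formed 4 clusters, named from marker genes as SSC-like (112 cells), progenitor-like (79 cells) and differentiating-like (133 cells in 2 clusters). Stem cell markers were counted as detected when at least 10% of the cells of a cluster held a UMI, and the SSC-like cluster held 5 of the 6, Id4, Etv5, Bcl6b, Lhx1, Nanos2 and Eomes being the list. Depth differed between classes, with a median of 22293 UMIs per SSC-like cell, 19446 per progenitor-like cell, 10878 per differentiating-like cell and 8194 per somatic cell. The progenitor-like class also held 1 cell rich in hemoglobin UMIs, which carried no Nefm UMI.

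Both genes lie on chromosome 14 of the mouse assembly GRCm38 (mm10) and are neighbours. In the GENCODE annotation Nefm lies on the minus strand from 68082590 to 68124846 and Nefl on the plus strand from 68083863 to 68089095. Nefm-201, with 3 exons and 2544 coding bases, spans 68119283 to 68124846, and Nefl-201, with 4 exons and 1629 coding bases, spans the whole Nefl gene. A second transcript, Nefm-202, runs on with a distant exon 4 from 68082590 to 68084970, which covers exon 1 of Nefl on the opposite strand over 1108 bases, from 68083863 to 68084970. The exons of Nefm-201 and Nefl-201 share no position. These models were not compared with the annotation used in counting, so whether that annotation held Nefm-202 is not known here. Whether strand was used in counting is not given in the sources used here, so reads in that overlap cannot be assigned with certainty, while the 3′ exons of Nefl-201 and Nefm-201, where this 3′ assay reads, lie outside it.

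**Figure D1:**
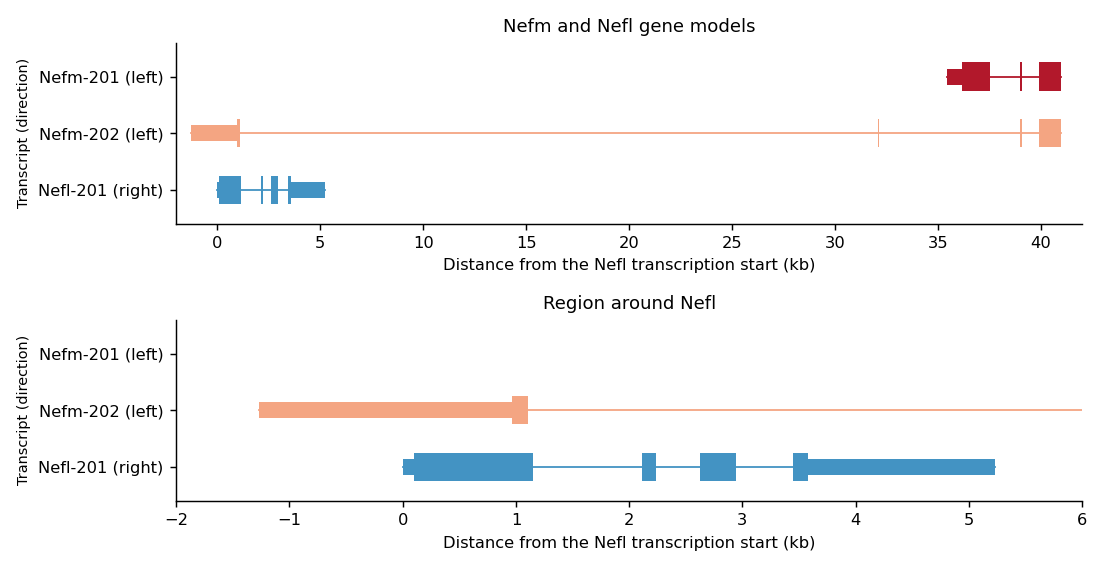
Gene models of Nefm and Nefl, with distance from the Nefl transcription start in kb on the x axis, 1 row per transcript, tall boxes for coding exons, low boxes for untranslated exon parts and thin lines for introns. The lower panel enlarges the region of Nefl, where exon 4 of Nefm-202 overlaps exon 1 of Nefl-201 over 1108 bases and Nefm-201 has no exon.

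Since the 2 chains are related proteins, their transcripts were compared for stretches that could take each other's reads. The longest identical run of Nefm-201 and Nefl-201 was 17 bases. The longest run that Nefm-201 shared with the heavy chain transcript Nefh-201 was 23 bases, and with Ina-201 it was 19 bases. Nefl-201 shared at most 14 bases with Nefh-201 and 13 with Ina-201.

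Nefm was highest in SSC-like cells, with a lower level in progenitor-like cells and a level near that of somatic cells in differentiating-like cells. Summed over a class and scaled to 1000000 UMIs of that class (CPM), its level was 182 CPM in SSC-like cells (445 UMIs, exact Poisson 95% interval 165 to 200). Progenitor-like cells stood at 32.5 CPM (47 UMIs, 23.9 to 43.2), and the differentiating-like level was 2.40 CPM (4 UMIs, 0.655 to 6.16). The 2 differentiating-like clusters held 3 UMIs in 101 cells and 1 UMI in 32 cells. These intervals, and all others below, cover counting error at 95% and not the variation between mice. Those of levels and ratios also leave out extra spread between cells. For Nefm that spread was large, with a variance 8.45 times the mean in SSC-like cells, so its level and ratio intervals are too narrow.

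On the log2 scale the ratio of Nefm between SSC-like and other germ cells was 3.47 (exact conditional binomial interval 3.05 to 3.92), the largest of 6064 genes with at least 100 UMIs in germ cells. The median of those genes was -0.03 and the gene next to Nefm was Lhx1, at 3.07. Of the 6064 genes, 110 (1.81%) had a ratio of at least 2 in favour of SSC-like cells and 96 (1.58%) had a ratio of at most 1/2. Clustering used Nefm itself, along with the genes that follow it. When Nefm, Nefl, Gfra1, Lhx1, Etv5 and Id4 were withheld from clustering and naming, a cluster of 112 cells formed again and shared 110 cells with the SSC-like cluster, although too few stem cell markers then remained to name it. Other genes high in that cluster, such as Bcl6b and Amot, were not withheld. The overlap is therefore no evidence separate from the first clustering. Across the other alternatives that kept the progenitor cells among the germ cells and chose germ cells by cluster, the log2 ratio of Nefm lay between 3.30 and 4.74. With 20 principal components, 1 of these alternatives, the cluster named SSC-like held 81 cells. Fcer1g, S100a6, Arhgap9 and Tmsb4x were among its top 10 genes beside Lhx1 and Nefm, so the range does not describe the same cells throughout.

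Cell by cell, Nefm was uneven within the SSC-like class. Of 112 cells, 30 held no Nefm UMI, 17 held 1, 30 held 2 to 4, 25 held 5 to 9 and 10 held at least 10. The median was 2 UMIs, the highest cell held 44 and the next held 24. The 10 richest cells carried 39.8% of the SSC-like Nefm UMIs, and the variance of the count was 8.45 times its mean. For Nefh in the same cells that quotient was 0.986, and for Ina it was 1.25. Their means were lower, at 0.56 UMIs per cell for Nefh and 0.60 for Ina against 3.97 for Nefm. Such a quotient depends on the mean, so it does not rank these genes by unevenness. Without the cell with 44 UMIs the log2 ratio to the other germ cells was 3.34. In progenitor-like cells 61 of 79 held none and the highest held 8, so the upper tail of that class overlapped with the SSC-like cells.

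Nefm was detected in 104 of 324 germ cells (32.1%, exact binomial interval 27.0 to 37.5). The share was 73.2% in SSC-like cells (82 of 112, 64.0 to 81.1), 22.8% in progenitor-like cells (18 of 79, 14.1 to 33.6) and 3.01% in differentiating-like cells (4 of 133, 0.825 to 7.52). Depth moved with these shares: SSC-like cells with Nefm had a median of 23273 UMIs and those without it had 18660. When every cell was thinned to 5000 UMIs, which left out 45 shallower germ cells, the share was 46.4% for the SSC-like class (51 of 110). It was 11.1% for the progenitor-like class (8 of 72), and 0 of 97 differentiating-like cells held Nefm, which allows a share of up to 3.09% (3 cells of the total). The cells left out numbered 2, 7 and 36 in these classes. The order of the classes was therefore the same at equal depth. Within the SSC-like class the share was 33.3% in the 15 cells under 15000 UMIs and 83.8% in the 37 cells with at least 25000 UMIs. The level did not follow the share, with 268 CPM (191 to 367) in the first group and 202 CPM (176 to 230) in the second. The 2 groups of depth between them had 166 and 144 CPM.

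**Figure D2:**
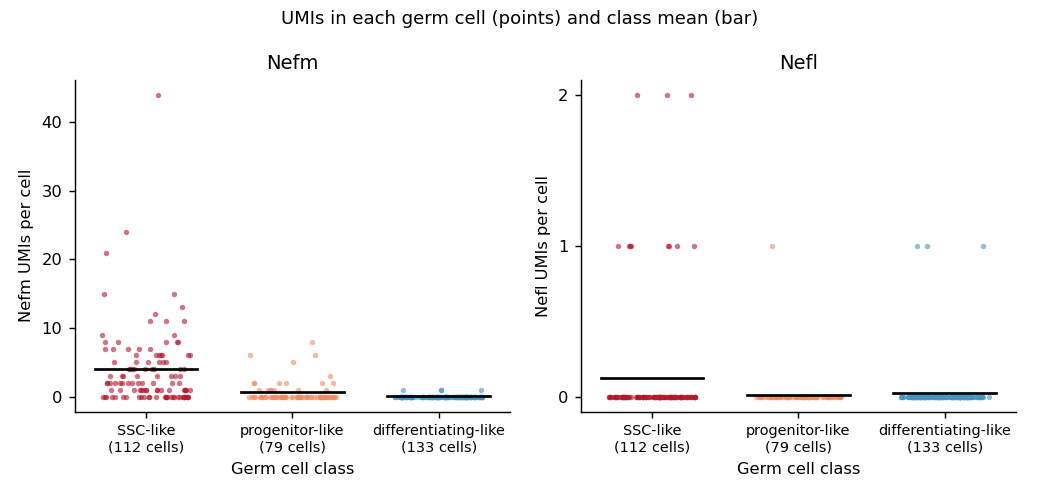
UMIs of Nefm (left) and Nefl (right) in each germ cell, with 1 point per cell spread sideways for visibility and a black bar at the class mean. Nefm reached 44 UMIs in SSC-like cells, 8 in progenitor-like cells and 1 in differentiating-like cells, and Nefl did not pass 2 UMIs in any cell.

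Nefl was sparse. Over all germ cells it had 18 UMIs in 15 cells (4.63%, 2.61 to 7.52), of which 14 UMIs lay in 11 SSC-like cells, 1 in a progenitor-like cell and 3 in differentiating-like cells. Its SSC-like level was 5.73 CPM (3.13 to 9.61). The other levels were 0.691 CPM for the progenitor-like class (0.0175 to 3.85) and 1.80 CPM for the differentiating-like class (0.372 to 5.27). The log2 ratio between SSC-like and other germ cells was 2.15, with a wide interval of 0.48 to 4.22, and the gene was too rare to be among the 6064 ranked. The intervals of all 3 levels overlapped one another, so they do not settle the order of the 3 classes for Nefl. The interval of the ratio lay wholly on the side of more Nefl in SSC-like cells than in the other germ cells. That interval covers counting error only and rests on 18 UMIs. After thinning, 4 cells with Nefl remained, all SSC-like (4 of 110, 3.64%).

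The cells with Nefl were mostly cells with Nefm. Of the 15 cells with a Nefl UMI, 12 also held Nefm (80.0%, 51.9 to 95.7), and in the 11 SSC-like cells among them Nefm ranged from 0 to 15 UMIs with Nefm absent from 1 cell. The 3 cells that held 2 Nefl UMIs had 15, 13 and 12 Nefm UMIs. In the other direction 12 of 104 cells with Nefm held Nefl (11.5%, 6.11 to 19.3). The cells with Nefl were also deep, with a median of 24887 UMIs against 18119 in germ cells without it, and of the 4 cells left after thinning 1 held Nefm. Within the SSC-like class, Nefm was found in 90.9% of the 11 cells with Nefl (58.7 to 99.8). It was found in 71.3% of the 101 SSC-like cells without Nefl (61.4 to 79.9), and these intervals overlapped. Depth and cell class were not separated from co-detection for Nefl, because 18 UMIs do not allow it. A UMI count reflects how well a transcript's 3′ end is captured as well as how abundant it is, so the 2 chains were not ranked against each other by level.

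The remaining neurofilament subunits had other distributions. Nefh, the heavy chain, was detected in 131 germ cells with 194 UMIs, and its level was 25.8 CPM in SSC-like cells (19.8 to 33.0). Progenitor-like cells had 44.9 CPM (34.7 to 57.3), and 39.7 CPM were found in the differentiating-like class (30.7 to 50.5). Its log2 ratio between SSC-like and other germ cells was -0.71 (-1.17 to -0.27), opposite in sign to that of Nefm. Ina had 147 UMIs in 100 germ cells, with 27.4 CPM in the SSC-like class, 42.9 CPM among progenitor-like cells and 10.8 CPM for the differentiating-like class. Its log2 ratio was 0.09 (-0.40 to 0.58). Both levels were highest in progenitor-like cells, but the interval there overlapped with that of the next class, differentiating-like for Nefh and SSC-like for Ina. In somatic cells Nefh had 4 UMIs and Ina had 2.

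**Figure D3:**
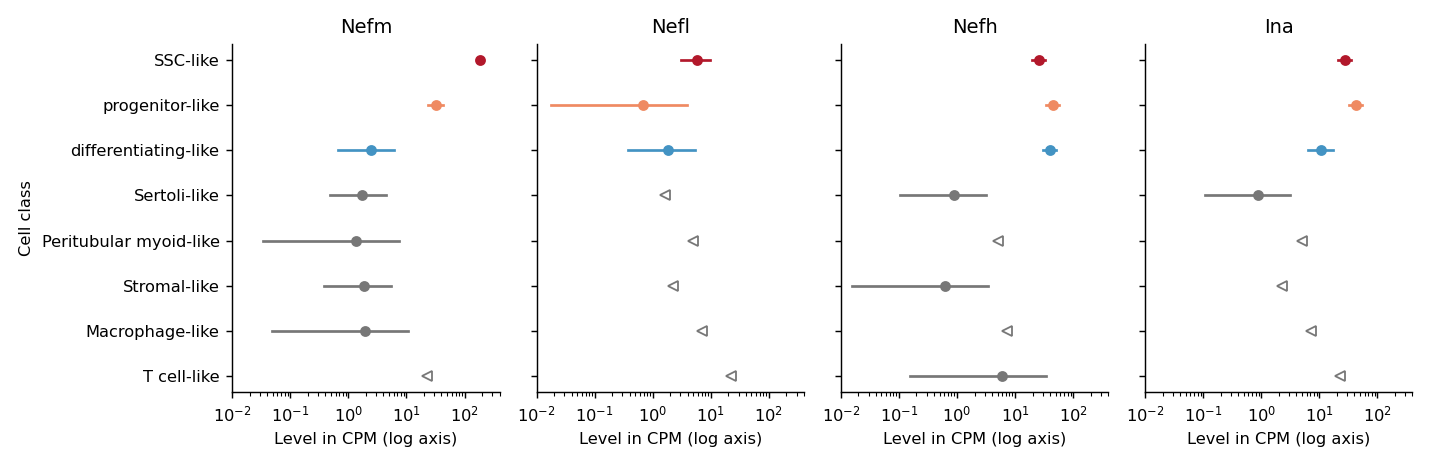
Level of Nefm, Nefl, Nefh and Ina in CPM (log axis) in the 3 germ cell classes and 5 somatic classes of the library, with points for the summed level, lines for exact Poisson 95% intervals and open triangles for the upper limit where no UMI was found. Nefm falls from 182 in SSC-like cells to 32.5 and 2.40 in the next 2 classes, while Nefh stays between 25.8 and 44.9 in the same classes.

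Somatic cells held almost no Nefm and no Nefl. Of 596 somatic cells, 9 held a single Nefm UMI each (1.51%, 0.693 to 2.85), with 4 UMIs in Sertoli-like, 3 in stromal-like, 1 in peritubular myoid-like, 1 in macrophage-like and 0 in T cell-like cells. The summed level was 1.68 CPM (0.768 to 3.19), which was 0.0188 of the germ cell level (0.00855 to 0.0360). Genes that only germ cells should express gave similar quotients in the same somatic cells, 0.0250 for the germ cell helicase gene Ddx4 (0.0147 to 0.0398) and 0.0186 for the RNA-binding protein gene Dazl (0.0147 to 0.0233). The interval of the Nefm quotient overlapped with those of both references. Whether the somatic Nefm UMIs came from expression in somatic cells was not tested. The differentiating-like share of 3.01% had an interval that contained the somatic 1.51%, so it was not distinguishable from the somatic share.

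For Nefl the count was 0 of 596 somatic cells, which allows a share of up to 0.503% (again 3 cells of the total), and the upper bound of its level relative to germ cells was 0.236. Of the partner genes, Gfra1 stood at 0.0159 of its germ cell level in somatic cells and Id4 at 0.0451, Lhx1 had no somatic UMI, and Etv5 stood at 0.458 (0.345 to 0.603). None of the 9 somatic cells with Nefm held Gfra1 or Lhx1. Their germ cell marker level was 19.3 CPM, from 2 UMIs, and that of the other 587 somatic cells was 32.0 CPM.

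Co-detection was examined with 4 genes of the stem cell state: Gfra1, the GDNF co-receptor gene, Lhx1 and Etv5, transcription factor genes that GDNF induces, and Id4. Nefm was found in 73.2% of the 97 germ cells with Gfra1 and in 14.5% of the cells without it. The shares were 82.5% and 19.9% for Lhx1 (63 cells with it), 76.7% and 15% for Etv5 (90 cells), and 70.6% and 24.9% for Id4 (51 cells). For each of these 4 genes the pair of intervals did not overlap. The log2 ratio of the Nefm level in cells with over cells without the partner was 2.20 for Gfra1 (1.90 to 2.50), 2.45 for Lhx1 (2.18 to 2.73), 2.49 for Etv5 (2.19 to 2.80) and 1.81 for Id4 (1.55 to 2.07). Lhx1, Etv5 and Id4 were among the markers that named the SSC-like class, and all 4 could enter the clustering. The values here do not use the split of germ cells into classes. Nefm was itself chosen from the ratio between those classes, so its co-detection with these genes is a description and not separate evidence.

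A deeper cell shows more of every gene, so the same was measured after thinning and with other partners. Cells with a partner had medians of 22215 to 24042 UMIs. At 5000 UMIs the shares of cells with Nefm were 50% with and 16.6% without Gfra1, 59.1% and 17.9% for Lhx1, 54.8% and 16.9% for Etv5, and 44.4% and 20.4% for Id4. The intervals still lay apart for the first 3 genes but not for Id4, which was left with 9 cells. For Ddx4, a general germ cell gene, the thinned shares were 20.9% and 21.4%, and for Ina they were 20.7% and 21.2%. For Nefh they were 12.2% and 22.7%, with a log2 ratio of -1.49 (-2.84 to -0.40), on 7 Nefm UMIs in the cells with Nefh. These values mix the germ cell classes, and Nefh was lower in SSC-like than in other germ cells. Within SSC-like cells the thinned shares were 45.5% and 46.5%, with a log2 ratio of -0.70 (-2.05 to 0.40).

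**Figure D4:**
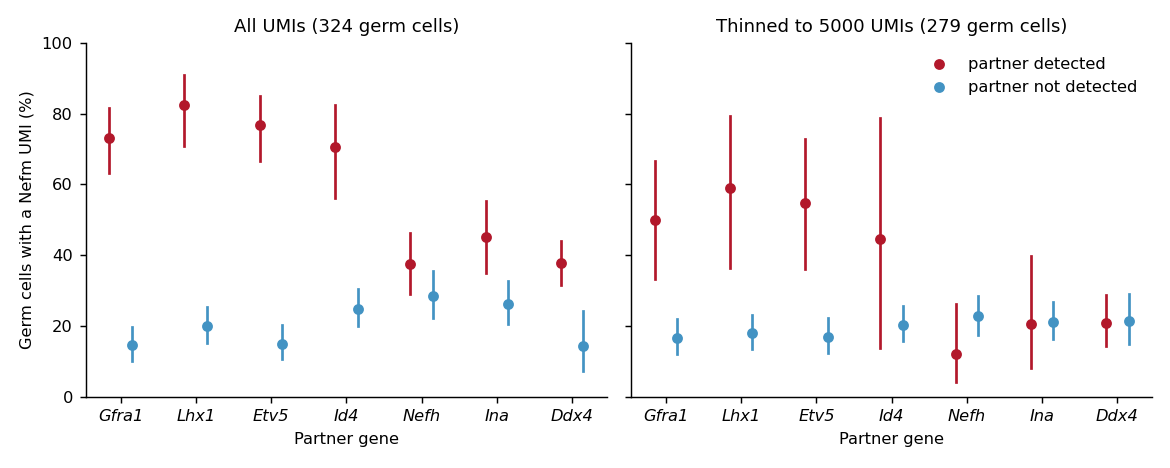
Share of germ cells with a Nefm UMI (%) among cells in which a partner gene was detected (red) or not (blue), with exact binomial 95% intervals, for all UMIs (left, 324 cells) and after thinning to 5000 UMIs (right, 279 cells). The thinned shares are 59.1% with and 17.9% without Lhx1, and 20.9% with and 21.4% without Ddx4.

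The same partners were then followed inside the classes. In SSC-like cells the log2 ratio of Nefm was 0.66 with Gfra1 (0.35 to 0.99), 1.06 with Lhx1 (0.78 to 1.36), 0.81 with Etv5 (0.48 to 1.14) and 0.86 with Id4 (0.59 to 1.14). In progenitor-like cells it was 2.63 with Gfra1 (1.63 to 3.76), 3.89 with Lhx1 (2.97 to 4.89), 3.11 with Etv5 (2.16 to 4.16) and 2.38 with Id4 (1.48 to 3.30), on 47 Nefm UMIs in all. Progenitor-like cells that held Lhx1 carried Nefm in 72.7% of 11 cells, against 14.7% of the cells without it. After thinning, the interval lay above 0 within SSC-like cells for Lhx1 (1.53, 0.92 to 2.13, with 16 cells that held Lhx1), and for the other 3 partners it contained 0. Within progenitor-like cells the thinned intervals contained 0 for Gfra1 (1.84, -0.16 to 3.71), Lhx1 (1.14, -2.09 to 3.37) and Etv5 (1.42, -1.81 to 3.65). For Id4, held by 2 thinned progenitor-like cells, no ratio could be formed. Ina, not one of these partners, had a thinned log2 ratio of 1.93 (0.02 to 3.83) there, with 6 Nefm UMIs on each side. Within thinned SSC-like cells the interval of Ina contained 0 (-0.84, -2.19 to 0.26). The thinned progenitor-like shares with Nefm were 16.7% of 6 cells with Lhx1 and 10.6% of those without it.

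The level of Nefm was higher in cells with more of the 4 partners. In cells with none of them (175 cells) it was 6.05 CPM (3.31 to 10.1) and 5.14% of the cells held a Nefm UMI. With 1 partner (61 cells) it was 42.2 CPM (31.5 to 55.5), with 2 (39 cells) 165 CPM (139 to 194), with 3 (34 cells) 224 CPM (191 to 259) and with all 4 (15 cells) 294 CPM (243 to 353). The intervals of the groups with 2 and 3 partners overlapped, as did those of the groups with 3 and 4, and the last group held fewer than 20 cells. The share of cells with Nefm was 32.8%, 79.5%, 88.2% and 93.3% in these groups. Depth differed as well, with a median of 13203 UMIs in the cells with no partner and 20085 in those with 1. At 5000 UMIs the levels were 35.4 CPM with none (198 cells), 194 CPM with 1 (64 cells) and 240 CPM with 2 (15 cells).

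**Figure D5:**
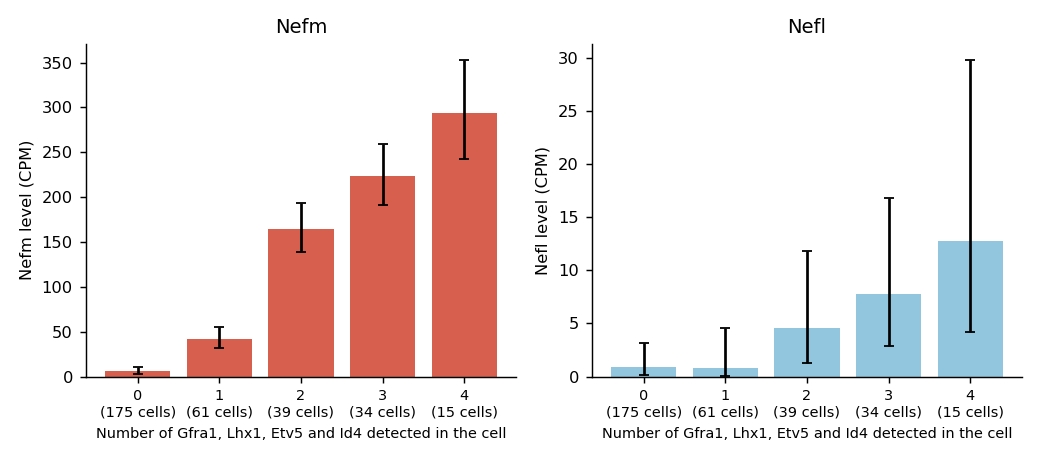
Level of Nefm (left) and Nefl (right) in CPM in germ cells grouped by how many of Gfra1, Lhx1, Etv5 and Id4 were detected in the cell, with exact Poisson 95% intervals as error bars and the number of cells under each bar. Nefm is 6.05 with no partner and 294 with all 4, and the Nefl bars rest on 1 to 6 UMIs each.

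For Nefl the partner values rest on 18 UMIs. The log2 ratio was 2.45 with Gfra1 (0.78 to 4.51), 2.50 with Lhx1 (0.97 to 4.20), 3.10 with Etv5 (1.28 to 5.53), 0.92 with Id4 (-0.78 to 2.44) and 2.80 with Nefm (0.97 to 5.23). Thinned to 5000 UMIs, every one of these intervals that could be formed contained 0, and no difference was detectable at that depth.

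SSC-like cells with and without Nefm were compared for the genes listed for these roles. Of 6062 genes with at least 100 UMIs in germ cells, 425 (7.01%) had an interval above 0, meaning more in the cells with Nefm, and 347 (5.72%) had one below 0. Of the 14 receptor and response genes with UMIs here, 10 had an interval above 0 and none below. The lists in this comparison were counted without the minimum of 100 UMIs. Their counts therefore include rarer genes, such as Spry4 and Id4, that the background shares leave out. The 82 cells with Nefm carried more of the feedback regulators of receptor signalling Dusp6 (log2 ratio 2.13, 1.04 to 3.48) and Spry4 (1.96, 0.32 to 4.29). The same held for the transcription factor genes Lhx1 (1.72, 0.87 to 2.71), Egr2 (1.72, 0.53 to 3.22), Bcl6b (1.40, 0.35 to 2.66), Etv5 (1.36, 0.53 to 2.31), Etv4 (0.86, 0.18 to 1.62) and Pou3f1 (0.85, 0.11 to 1.68), and for the receptor genes Gfra1 (1.19, 0.41 to 2.07) and Ret (0.85, 0.22 to 1.53). The intervals of Id4 (0.99, -0.24 to 2.51), Nanos2 (-0.41, -1.56 to 0.88), Eomes (2.12, -0.57 to 7.51) and T (2.02, -0.68 to 7.42) contained 0. The 30 cells without Nefm carried more of 5 of the 7 progenitor markers, Upp1 (-2.53, -3.53 to -1.56), Rarg (-2.24, -3.90 to -0.65), Sox3 (-1.01, -1.78 to -0.21), Eno1 (-0.77, -1.04 to -0.49) and Nanos3 (-0.72, -1.21 to -0.22), and of 3 of the 6 differentiation markers, Stra8 (-1.33, -1.70 to -0.97), Uchl1 (-0.62, -0.79 to -0.44) and Sycp3 (-0.48, -0.85 to -0.09). Neurog3 (-1.88, -4.31 to 0.54), Msi2, Kit, Rhox13 and Dmrtb1 had intervals that contained 0. Of the 6 germ cell markers, Sohlh1 (-0.85, -1.15 to -0.54) and Dazl (-0.22, -0.38 to -0.06) were lower in the cells with Nefm. The intervals of Ddx4 (0.25, -0.15 to 0.66), Zbtb16 (0.08, -0.35 to 0.54), Taf4b and Tdrd1 contained 0. Of 11 intermediate filament genes with UMIs, the nuclear lamin gene Lmna was higher in the cells with Nefm (2.14, 0.72 to 4.06) and 10 had intervals that contained 0, among them Nefh and Ina, each at -0.33. Of 13 genes for the transport, linking, modification and turnover of neurofilaments, 11 had intervals that contained 0. The kinesin gene Kif5b was higher in the cells with Nefm (0.56, 0.006 to 1.17) and its relative Kif5c was lower (-0.99, -1.82 to -0.13). These cells were split by a UMI of Nefm, which is itself one of the genes that formed the cluster, so the values describe the range within it. Cells with Nefm were also deeper, with a median of 23273 UMIs against 18660 in those without it. The comparison was not repeated at equal depth.

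Of 15 genes listed as GDNF receptors and response genes, 14 had a UMI in germ cells, 9 could be ranked, and 8 of the 9 had a ratio of at least 2 in SSC-like cells, beside 1.81% of all genes. Pou3f1 was the exception at 0.27 (-0.09 to 0.63). The median of the 9 log2 ratios was 1.89, and the highest were Lhx1 (3.07), Bcl6b (2.97), Dusp6 (2.45) and Etv5 (2.26). Lhx1, Bcl6b and Etv5 also named the class, so this count is no evidence separate from the name.

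The genes that Nefm and Nefl work with in neurons did not share their distribution. Of the 13 other intermediate filament genes, 12 had a germ cell UMI and 5 could be ranked, of which 0 had a ratio of at least 2 and 0 a ratio of at most 1/2 (median -0.16). They were Nefh (-0.71), Ina (0.09), the nestin gene Nes (-0.69, -1.26 to -0.14) and the nuclear lamina genes Lmna (0.78, 0.24 to 1.33) and Lmnb1 (-0.16, -0.56 to 0.23). Vim, which encodes vimentin, the filament protein of mesenchymal and Sertoli cells, was at 7.74 CPM in germ cells and 972 CPM in somatic cells. Prph, for the neuronal filament protein peripherin, had 1 germ cell UMI, and Gfap had none.

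Of 13 genes for the transport, linking, phosphorylation and turnover of neurofilaments, all had a germ cell UMI and 7 could be ranked. None of the 7 reached a ratio of 2 in either direction, and the median was -0.12. The kinesin gene Kif5b was at 81.8 CPM in SSC-like and 89.1 CPM in other germ cells, its relative Kif5c at 23.3 and 25.4 CPM, and the cytoskeletal linker gene Dst at 24.9 and 30.2 CPM. Cdk5, for a kinase that phosphorylates neurofilament tails, was at 17.6 and 27.3 CPM.

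Neuronal genes were scarce in the germ cells. Of 11 listed, 9 had a germ cell UMI, none had enough to be ranked, and Gap43, for an axonal growth protein, had no germ cell UMI. Mapt, for the microtubule protein tau, had 25 UMIs, Elavl3 had 24, Tubb3 had 20 and Map2 had 16. Elavl3, for a neuronal RNA-binding protein, had 3 UMIs in SSC-like and 21 in other germ cells (-2.46, -4.85 to -0.72), and Snap25, for a synaptic vesicle fusion protein, had 7 and 1 (3.15, 0.19 to 8.65). The 5 markers for neurons, Tubb3, Stmn2, Elavl4 and Snap25 among them, summed to 10.6 CPM in SSC-like cells, 2.07 CPM in the progenitor-like and 8.42 CPM in the differentiating-like class, and 92.6 CPM in somatic cells, where Tubb3 gave most of the UMIs. Of the 5 glial markers none could be ranked, and their sums were, in the same order, 18.8, 31.1, 18.6 and 153 CPM.

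The genes whose log-normalised expression followed that of Nefm most closely over the 324 germ cells were Tcl1 (Pearson's r 0.58), Ccnd2 (0.55), Fgl1 (0.55), Etv5 (0.55), Lhx1 (0.53), Phlda1 (0.53), Rasgrp2 (0.53), Etv4 (0.52), Pdzd2 (0.51) and Ret (0.49), of 9024 genes compared. Gfra1 was 13th in this order (0.48) and Id4 was 17th (0.46). These cells come from 1 library and share its depth gradient and the step between classes, so the coefficients are descriptive. Within the 112 SSC-like cells r was highest for Ccnd2 (0.56), Fgl1 (0.55) and Tcl1 (0.51) of these 10 genes, and Ret had the lowest (0.30). After thinning, the 10 values lay between 0.17 for Etv4 and 0.45 for Ccnd2, the gene of the cell cycle regulator cyclin D2. Nefh (-0.09) and Ina (0.06) did not follow Nefm, and Nefl had an r of 0.26 with it. For Nefl, the 10 highest coefficients ran from 0.33 (Marcks) to 0.41 (Efhc2) and lay between -0.04 and 0.15 after thinning, so no likeness was detectable for this gene.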

How the data were processed

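Single-cell RNA sequencing (10x Genomics, v2 chemistry) of 1 wild-type library was analysed. Per the labels, the authors processed the reads with Cell Ranger 2.1.0 on mm10 and used Seurat; they deposited raw UMI counts per gene and barcode, without normalization. The thresholds below are those of this re-analysis, and whether strand was used in counting is not given in the sources used here.

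Barcodes with under 500 genes (10), at least 10% mitochondrial UMIs (36) or called as doublets (4, with the scrublet function of scanpy 1.11.5 at an expected rate of 0.01 and seed 0) were left out of 970. So few doublet calls do not show that doublets were absent. With Seurat 5.3.0 in R 4.3.3, genes in at least 3 cells were log-normalised to 10000 UMIs, variable genes were chosen by mean.var.plot, and cells were clustered on 14 principal components at resolution 0.5. Germ cells were clustered again. A cluster took the name of the marker list with the highest mean log-normalised excess over the other cells, if at least 3 of its markers were detected, another class did not lead its top 10 genes, and its depth was not low. Germ cell clusters were held against the spermatogonial classes only, so leading genes of somatic classes did not bar a name there. The naming of germ cell clusters was set after a first version had been seen to leave 1 of them unnamed: markers of the spermatogonial classes then counted as germ cell markers.

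Levels are summed UMIs per 1000000, with exact Poisson intervals. Shares have exact binomial and ratios exact conditional binomial intervals (95%, counting error only, scipy 1.17.1). A share of 0 cells was instead given a limit of 3 cells of the total, which lies below the upper end of its exact interval. There was 1 library, so no test was made. A gene was ranked with at least 100 UMIs in germ cells and called at a ratio of 2. Cells were thinned to 5000 UMIs (seed 0). The interval and thinning code was tested on simulated data.

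The genes named are Nefm and Nefl, their partners, Ddx4 and Dazl, members of the gene lists (those with a ratio of at least 2 or at least 10 UMIs) and, per member, the 10 genes with the highest correlation among those with a UMI in at least 10% of germ cells. The members and the lists were chosen with earlier results of these data known. Proteins and promoters of Nefm and Nefl, and motifs in them, were not analysed here. Some genes of the lists and a stretch of sequence are not reported here.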

Additional observations from a re-analysis of the deposited data

Results flagged for a closer look

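The 50 barcodes left out by the filters held 12 Nefm UMIs in 5 barcodes (27.0 CPM, exact Poisson 95% interval 14 to 47.2) and no Nefl UMI, a signal above the 1.68 CPM of the somatic cells. Of these, 6 UMIs lay in 3 of the 36 barcodes with a high mitochondrial share, a group in which 19 barcodes held Dazl, and 6 lay in 2 of the 4 barcodes called doublets. The 10 barcodes with under 500 genes held none. Whether damaged germ cells or mixed barcodes carry these UMIs was not tested.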

How the results depend on the processing

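No paired analysis was possible because there was 1 library. Over 16 alternatives, of which 2 were chosen after seeing the data (another thinning seed, and leaving out the kept cell richest in Hba-a1, which is also the cell that a limit of 1000 genes removes), 141 of 179 values stayed within the 95% interval of the reported value, or within 1.5 times for the count of genes, and none changed sign. The others moved as follows, and the cause was not tested except where named. At resolutions 0.8 and 1.2 a cluster of 84 cells led by Neurog3 and haemoglobin genes stayed unnamed and left the germ cells (240 remained, at 0.8 with no progenitor-like class), so values there compare other groups. Choosing germ cells by a Ddx4 or Dazl UMI admitted somatic cells (410 cells), and macrophage genes led the cluster named SSC-like, so values there do not describe the same germ cells. The log2 ratio of Nefm between SSC-like and other germ cells was 4.74 with no mitochondrial limit, 4.15 with variable genes by vst and 5.71 at resolution 0.8. The 110 genes at a ratio of 2 became 190 with germ cells chosen by a Ddx4 or Dazl UMI, 167 with 20 components, 237 at resolution 0.8 and 229 with a minimum of 50 UMIs. Thinning left 15 genes, or 14 with seed 1, where the minimum of 100 UMIs admits far fewer genes. The 32.1% of germ cells with Nefm became 25.4% by Ddx4 or Dazl, 41.6% in cells with at least 10000 UMIs, and 21.1% or 22.9% (seed 1) when thinned, and Nefl then fell to 1.43% or 0.717%. The log2 ratios of Nefm by partner became 2.54 (Gfra1), 2.74 (Lhx1) and 2.08 (Id4) with germ cells by Ddx4 or Dazl. They were 1.37 (Gfra1), 1.58 (Etv5) and 1.43 (Id4) when thinned, and 1.58 (Gfra1), 1.59 (Lhx1), 1.63 (Etv5) and 2.28 (Id4) with seed 1. Without the cell with most Nefm UMIs the value for Id4 was 2.07. Of cells with Nefl, 25% or 50% (seed 1) held Nefm when thinned, and 1.69% or 1.56% of cells with Nefm held Nefl. A mitochondrial limit of 5% left 67 germ cells. There 8.96% held Nefm, the log2 ratio of somatic over germ cells was -7.57, those by partner were 0.64 (Gfra1), 3.46 (Lhx1), 0.95 (Etv5) and 5.06 (Id4), both of the cells with Nefl held Nefm (100%), and 33.3% of those with Nefm held Nefl. No cluster was named SSC-like at that limit or at resolution 0.3, so these gave no ratio between classes. With the 6 genes withheld, the unnamed cluster that scored highest for the stem cell markers was used.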
